A study of Mus musculus with 14 samples.

Results

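The urea cycle and the pathways that break down amino acids are described here through 32 genes, all of which were found by symbol in the 3 deposited tables of this mouse liver series. Those tables name 23404, 20337 and 21911 genes. The 32 genes were listed for what their enzymes do: 6 of the urea cycle, 3 of glutamine and glutamate metabolism, 4 of histidine breakdown, 4 of serine, glycine and glyoxylate metabolism, 4 of tyrosine breakdown, 3 of tryptophan breakdown, 2 of proline and ornithine metabolism, 5 of methionine and cysteine metabolism and 1 of lysine breakdown. Genotype, diet and treatment of the bulk libraries are given here as labelled, and the values of several genes go against those labels (below). One bulk RNA-seq table holds 3 libraries labelled wild type and 3 labelled KO for Ms4a7, a membrane protein gene of macrophages, all labelled as from mice fed a diet that induces nonalcoholic steatohepatitis (NASH, a fatty and inflamed liver) over 22 weeks. The other bulk table holds 3 libraries labelled PBS (phosphate-buffered saline, the vehicle) and 3 labelled LD (lipid droplets), by their labels from wild-type mice on chow that had tail-vein injections on 6 consecutive days. The nucleus table holds 1 library of wild-type (wt) and 1 of Ms4a7 KO (ko) liver nuclei, each a pool of 3 livers after the same NASH diet, as mean levels in 12 groups of nuclei numbered from 0. How doublets were treated is not given in the sources used here, and group means do not allow doublets to be called. Strain, sex, age and the kind of deletion are not given in the sources used here. The labels number the bulk libraries and name no animals, so p-values measure the spread between these libraries.

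Hepatocytes detoxify ammonia by the urea cycle. Cps1 makes carbamoyl phosphate from ammonia, Nags makes the activator that Cps1 needs, and Otc, Ass1, Asl and Arg1 carry the nitrogen on to urea. In the liver lobule, hepatocytes near the portal vein carry most of the urea cycle and of gluconeogenic amino acid breakdown, while a thin layer around the central vein captures the ammonia that escapes by making glutamine with Glul (glutamine synthetase). Many of these genes are known to respond to glucagon, glucocorticoids and feeding.

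The bulk labels were first checked on Ms4a7 itself. In the libraries labelled wild type its normalized count was 9.70, 25.8 and 23.3, and in those labelled KO it was 102, 117 and 136. In the libraries labelled PBS it was 62.2, 84.7 and 163, and in those labelled LD it was 10.5, 7.60 and 9.32. The targeted gene was thus higher in the libraries labelled KO and lower in those labelled LD, against what the labels would give, and the first header line of the table with the KO label calls its 2 sets of libraries untreated and treated. The deposited names of the bulk tables also disagree with the labels: the table with the labels wild type and KO is named for lipid droplets, and the one with the labels PBS and LD is named for Ms4a7. Genes of scarring and of lipid-laden macrophages went against the labelled diets as well. Col1a1, a collagen chain, had 118 to 171 normalized counts where the label was wild type (NASH diet by label) and 6996 to 9127 where it was PBS (chow by label), in tables that were scaled separately. Gpnmb and Trem2, genes of lipid-laden macrophages, were 2.45 to 4.85 and 1.21 to 2.58 in the former and 1274 to 2321 and 236 to 452 in the latter. If the labels of the 2 tables were exchanged, genotype, treatment and diet would be exchanged for every bulk value below, which was not settled here. Groups are therefore named below only as "labelled" KO, wild type, LD or PBS, and no direction is read as an effect of Ms4a7 or of lipid droplets in bulk. In the nuclei, Ms4a7 in the macrophage-like group 3 was 1.25 UMIs per 10000 in wt and 0.622 in ko. Each library of the table with the KO label held 21945394 to 23126164 reads assigned to genes, and libraries of the other held between 39318264 and 41346464.

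Between the 2 hepatocyte-like groups of nuclei, most of the 32 genes were unevenly divided. Group 0 was pericentral-like (around the central vein): the summed level of 10 pericentral markers was 41.3 (wt) and 49.8 (ko) UMIs per 10000 there, against 5.48 and 4.97 in group 1. Group 1 was periportal-like (around the portal vein): 8 periportal markers summed to 13.8 and 16.7 there, against 2.75 and 2.44 in group 0. Of the 32 genes, 20 were at least 1.5-fold higher in group 1 in both libraries, 3 were at least 1.5-fold higher in group 0, and 9 were neither. The level filter kept 11282 genes that were above the median level in the group where they were higher. Among these, 4.8% were that much higher in group 1 and 4.91% in group 0. Sdsl, counted among the 20, passed this filter through its group 1 level alone. The nuclei were grouped on expression that includes these genes, so the contrast is a description with no test. The median log2 ratio of group 1 to group 0 over the 32 genes was 0.86 in wt and 1.02 in ko, against 0.03 and -0.02 over all genes.

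The 5 genes most tilted to group 1 included both serine dehydratase genes, the first histidine enzyme, the liver glutaminase and the glycine decarboxylase. Sds, which turns serine into pyruvate and ammonia, stood at 0.0413 UMIs per 10000 in group 0 and 2.33 in group 1 of the wt library, and at 0.166 and 7.74 in the ko library, a 56.4-fold and a 46.7-fold difference. The group 0 level of Sds lay within the range of groups 2 to 11, which was 0 to 0.250 in wt and 0.0998 to 1.18 in ko. Hal, which removes ammonia from histidine, was 0.149 and 2.81 in wt and 0.245 and 4.41 in ko. Gls2, which frees ammonia from glutamine for Cps1, was 0.137 and 1.57 in wt and 0.242 and 3.63 in ko. The smallest of these ratios was that of Gls2 in wt, 11.5-fold. Sdsl, a serine dehydratase-like gene, had the same direction at a far lower level (0.136 in wt and 0.189 in ko group 1). Gldc, the decarboxylating subunit of the glycine cleavage system, was 6.24-fold higher in group 1 of wt and 4.69-fold higher in ko.

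The urea cycle genes had smaller ratios. Cps1 was the most abundant of the 32 genes in group 1 nuclei, without correction for length, at 35.8 UMIs per 10000 in wt and 63.4 in ko, and group 0 held 10.1 and 18.5, so that Cps1 was 3.53-fold and 3.44-fold higher in group 1. Arg1, which splits arginine into urea and ornithine, was 4.08-fold and 3.13-fold higher, and Ass1, which joins citrulline and aspartate, 3.22-fold and 3.09-fold higher. Asl followed at 2.26-fold and 3.40-fold and Otc at 1.71-fold and 1.57-fold, while Nags was near 1 in both libraries (1.03-fold and 1.13-fold). Thus 5 of the 6 urea cycle genes were past the fold and Nags was not. All 4 histidine genes were past it, in the direction of group 1: Hal, then Amdhd1 (3.42-fold and 2.997-fold), Uroc1 (3.21-fold and 2.90-fold) and Ftcd (1.84-fold and 1.90-fold).

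Glul was the gene most tilted to group 0, at 4.58 UMIs per 10000 in group 0 and 0.154 in group 1 of wt, and 4.92 and 0.146 in ko, a 29.7-fold and a 33.7-fold difference. Oat, which converts ornithine to a glutamate precursor, was 15.9-fold higher in group 0 of wt and 13.9-fold higher in group 0 of ko. Prodh, the first enzyme of proline breakdown, was 2.07-fold and 1.97-fold higher there. Glul, Oat and Prodh were the only members past the fold toward group 0. Hpd and Fah, both of tyrosine breakdown, came next and were below 1.5-fold (Hpd 1.06-fold and 1.19-fold, Fah 1.21-fold and 1.07-fold). Hgd, the third tyrosine gene after the first step, and the tryptophan gene Haao were also nearly even between groups, while Tat, the first tyrosine enzyme, was 1.998-fold and 2.14-fold higher in group 1. Nearest to the threshold toward group 1 were Otc inside it and Aass outside it, the latter at 1.35-fold in wt and 1.34-fold in ko, and Bhmt was past it in wt (2.39-fold) but not in ko (1.32-fold).

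**Figure D1:**
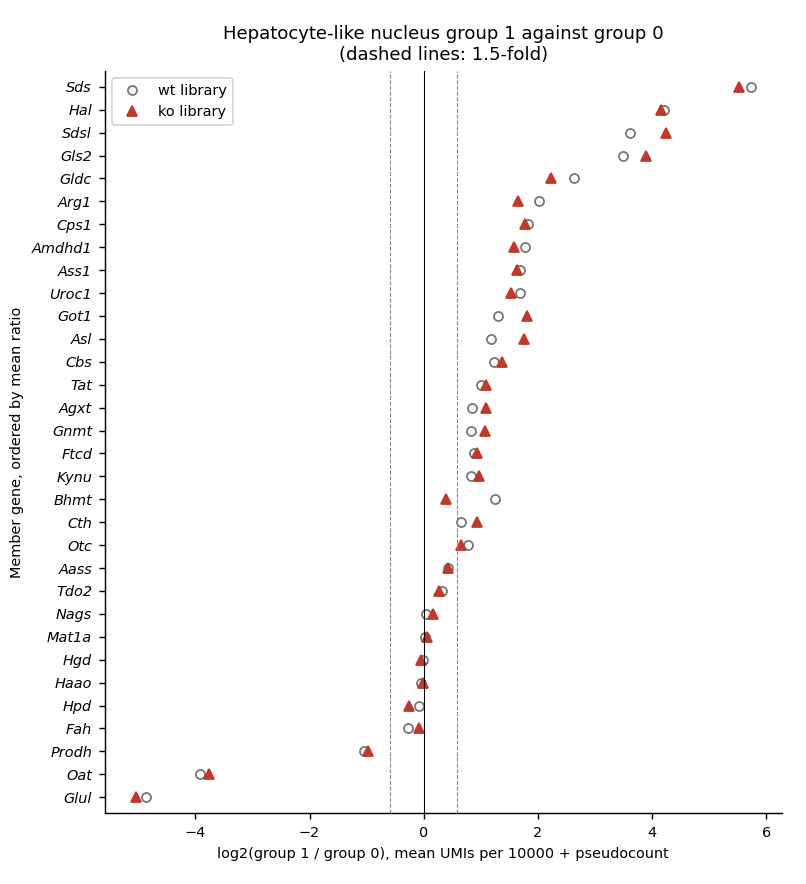
Log2 ratio of mean UMIs per 10000 in nucleus group 1 to those in group 0 (x axis) for each of the 32 genes (y axis), with the wt library as open circles and the ko library as filled triangles. Sds is at the top with 5.73 in wt and 5.52 in ko, Glul at the bottom with -4.87 and -5.05, and both libraries give nearly the same order.

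Members also lay side by side in the genome in 2 cases where both had the same tilt. On mouse build mm10, Hal (chromosome 10, 93488768 to 93519304, plus strand) ends 4.03 kb before the end of Amdhd1 (93523338 to 93540033, minus strand), and Sdsl (chromosome 5, 120458186 to 120472810, minus strand) starts 3.72 kb from the start of Sds (120476526 to 120483932, plus strand). Windows of 300 bases, from 250 before to 50 after each gene's start, were taken from RefSeq on build GRCm38.p6 for the 23 members that matched by symbol. Cps1, Asl, Arg1, Gls2, Sds, Sdsl, Kynu, Mat1a and Cth have none. The windows of Hal (tilted to group 1), Glul and Oat (tilted to group 0), and Prodh and Gnmt (the largest rises in the libraries labelled LD, below) are shown as examples of these patterns. Each reads 5′ to 3′ on the gene's strand, with letters matching a searched motif in capitals.
Hal, chr10:93488518-93488817, plus strand, with TTGCNNAA and CTTTGA in capitals: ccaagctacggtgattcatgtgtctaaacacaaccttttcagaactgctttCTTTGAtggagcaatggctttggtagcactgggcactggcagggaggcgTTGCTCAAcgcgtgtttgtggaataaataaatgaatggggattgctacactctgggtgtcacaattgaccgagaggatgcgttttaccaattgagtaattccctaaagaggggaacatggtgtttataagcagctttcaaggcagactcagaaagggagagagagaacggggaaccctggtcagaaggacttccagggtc
Glul, chr1:153899679-153899978, plus strand, no match: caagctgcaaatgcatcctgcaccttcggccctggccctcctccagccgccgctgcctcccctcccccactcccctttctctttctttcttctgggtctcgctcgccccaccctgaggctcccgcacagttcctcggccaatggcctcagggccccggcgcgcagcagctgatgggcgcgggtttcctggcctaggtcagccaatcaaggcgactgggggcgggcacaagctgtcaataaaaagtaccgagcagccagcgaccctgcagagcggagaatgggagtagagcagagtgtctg
Oat, chr7:132576349-132576648, minus strand, with TGACG in capitals: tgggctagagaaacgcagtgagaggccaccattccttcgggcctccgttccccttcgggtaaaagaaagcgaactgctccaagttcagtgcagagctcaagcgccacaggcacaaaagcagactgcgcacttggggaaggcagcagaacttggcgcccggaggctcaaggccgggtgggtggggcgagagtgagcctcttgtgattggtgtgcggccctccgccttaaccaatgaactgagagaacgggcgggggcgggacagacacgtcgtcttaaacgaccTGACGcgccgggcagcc
Prodh, chr16:18089141-18089440, minus strand, no match: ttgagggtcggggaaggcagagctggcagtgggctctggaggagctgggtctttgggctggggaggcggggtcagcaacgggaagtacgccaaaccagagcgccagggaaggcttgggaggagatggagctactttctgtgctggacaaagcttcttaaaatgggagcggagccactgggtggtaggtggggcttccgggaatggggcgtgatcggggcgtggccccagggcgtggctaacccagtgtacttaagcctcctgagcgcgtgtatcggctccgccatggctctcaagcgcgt
Gnmt, chr17:46729116-46729415, minus strand, with the glucocorticoid response element consensus in capitals: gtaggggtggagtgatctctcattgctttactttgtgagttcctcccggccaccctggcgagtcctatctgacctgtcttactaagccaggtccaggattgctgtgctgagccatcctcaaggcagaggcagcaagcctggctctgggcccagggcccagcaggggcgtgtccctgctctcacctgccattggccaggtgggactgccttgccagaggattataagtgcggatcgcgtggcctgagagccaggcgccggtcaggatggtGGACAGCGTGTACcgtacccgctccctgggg
In Hal, the letters of the C/EBP motif began 150 bases before the start and those of the TCF/LEF motif (CTTTGA) 199 bases before it. In Oat, the CRE core letters TGACG began 34 bases after the start, and in Gnmt the glucocorticoid element letters, a palindrome that reads alike on both strands, began 20 bases after the start. Both strands were searched, and no 2 of the matches in these windows overlapped. Among 32817 windows of all genes, TGACG was in 20.8% and in 4 of the 23 member windows, TTGCNNAA in 10.8% and in 3 (Aass, Hal and Hgd), CTTTGA in 16% and in 6, and the glucocorticoid response element consensus in 0.475% and in 1 (Gnmt). The HNF4A letters CAAAGTCC (1.42% of all windows) were in no member window. A match in these letters is a description of the window and says nothing of binding.

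Most of the 32 genes had higher levels in ko than in wt hepatocyte-like nuclei. In group 0, 31 of the 32 passed the level filter (Sdsl did not), 16 were at least 1.5-fold higher in ko and 0 were that much lower. Over all genes of group 0, 11.8% were that much higher and 4.98% that much lower. In group 1 all 32 passed, 18 were at least 1.5-fold higher and 1 was that much lower, against 11.6% and 9.26% of all genes. The median log2 ratio of ko to wt over the members was 0.60 in group 0 and 0.66 in group 1, beside 0.02 and -0.03 over all genes. With 1 pooled library per genotype there is no replicate check and no test, and genotype and library cannot be told apart.

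Gnmt, which uses up methyl groups by methylating glycine, had the largest ratio in group 1 and the second largest in group 0: 1.19 UMIs per 10000 in wt and 4.17 in ko of group 0, and 2.11 and 8.78 in group 1. The ko level was 3.49-fold and 4.15-fold the wt level. Sds was 4.01-fold higher in group 0, from a low level within the range of the non-hepatocyte groups, and 3.32-fold higher in group 1. Oat was 2.37-fold and 2.72-fold higher and Prodh 1.99-fold and 2.09-fold, so higher levels in the ko library were seen in genes tilted to either group. Got1, the cytosolic aspartate aminotransferase, was 1.75-fold and 2.48-fold higher, Gls2 1.76-fold and 2.31-fold, Hpd 2.16-fold and 1.93-fold, and Tat 1.85-fold and 1.98-fold.

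Within the urea cycle, Ass1 was 2.17-fold higher in ko of group 0 and 2.09-fold in group 1, Cps1 1.82-fold and 1.77-fold, and Nags 1.57-fold and 1.72-fold. Asl was past the fold in group 1 alone, at 1.76-fold against 1.17-fold in group 0, a difference that was not tested. Otc was 1.13-fold and 1.04-fold. Arg1 was 1.02-fold in group 0 and 0.779-fold in group 1. Glul was 1.07-fold in group 0, where most of it was found, and 0.949-fold in group 1. Bhmt, which remethylates homocysteine with betaine, was the 1 member past the fold downward, at 7.96 in wt and 4.99 in ko of group 1, and it was 3.34 and 3.78 in group 0. Tdo2, the first enzyme of tryptophan breakdown, was 0.852-fold and 0.816-fold.

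Other hepatocyte transcripts also differed between the 2 nucleus libraries. The summed level of 8 hepatocyte markers (Alb, Apob, Ttr and others, none at 0 in groups 0 and 1) was 54.6 in wt and 62.2 in ko of group 0, and 66.2 and 112 in group 1. In each of the other 10 groups that sum was 1.89-fold to 2.53-fold higher in ko than in wt, and the summed level of the 32 genes was 1.10-fold to 1.61-fold higher. The part of these library-wide differences in the ratios above was not tested. Hepatocyte markers did not all go one way: Alb was 22.5 in wt and 46.7 in ko of group 1, and Cyp3a11 was 1.45 and 0.292. The ko to wt ratio of Gnmt in the 9 other groups where wt was above 0 ran from 1.07-fold in the B cell-like group 9 to 21.5-fold in the neutrophil-like group 5, against 4.15-fold in group 1.

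**Figure D2:**
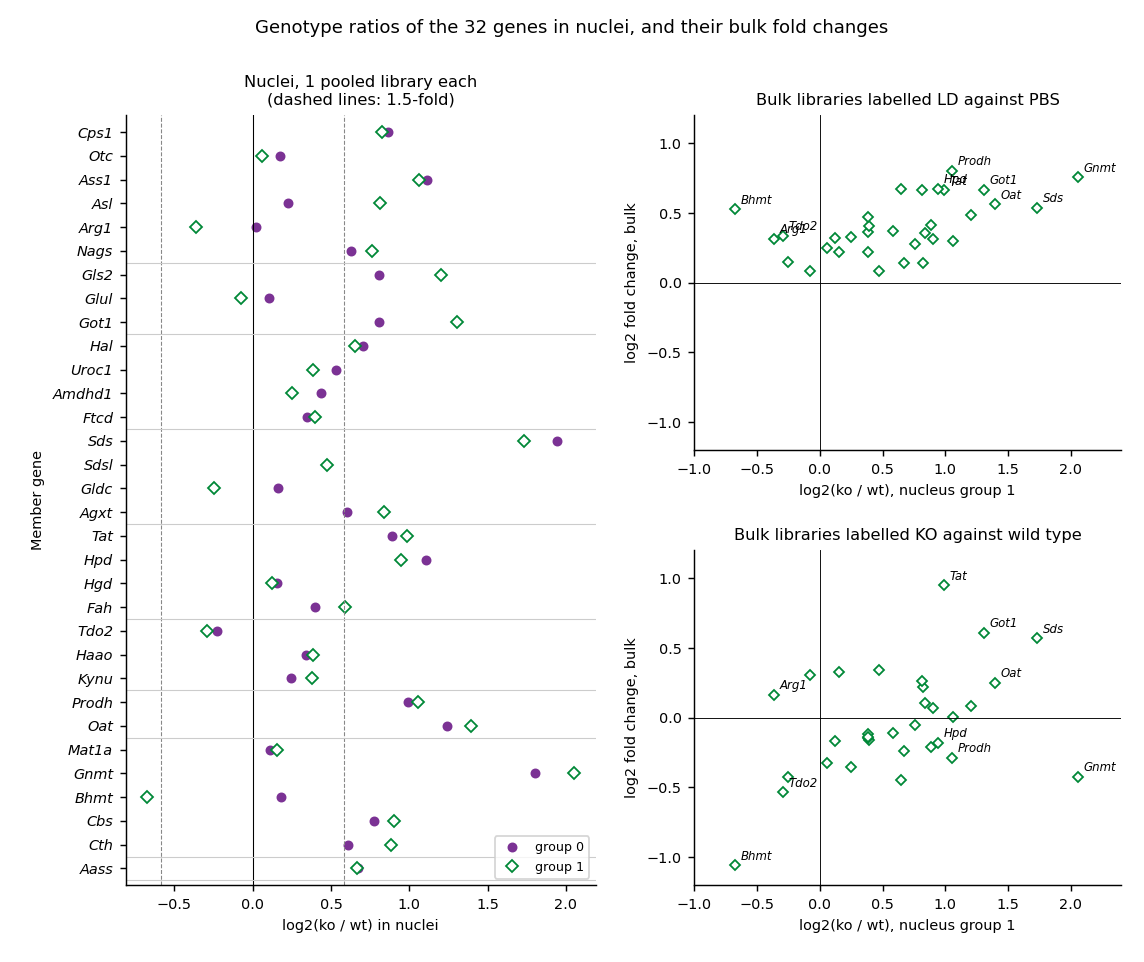
Left, log2 ratio of ko to wt levels of the 32 genes in nucleus group 0 (filled circles) and group 1 (open diamonds), with dashed lines at 1.5-fold. Right, the group 1 ratio (x axis) against the bulk log2 fold change (y axis) in the libraries labelled LD against PBS (top) and KO against wild type (bottom). All 32 genes lie above 0 in the upper right plot and 14 of 32 in the lower.

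In bulk, 7 of the 32 genes rose in the comparison labelled LD against PBS and 25 were not called. Each of the 32 had a higher mean in the libraries labelled LD, and those that rose (limma, Benjamini-Hochberg adjusted p under 0.05 over 14900 genes) were Prodh, Gnmt, Hpd, Asl, Gls2, Haao and Ftcd. Over all genes tested, 1.95% were called higher and 2.21% lower, and 0 members were called lower. The smallest and largest log2 fold changes were 0.08 (Glul) and 0.80 (Prodh), and the median was 0.36, against 0.00 over all genes. For 20 of the 32 genes every library labelled LD was above every library labelled PBS, which held for 12.6% of all genes. For 0 members was every library labelled LD below, against 12.8% of all genes. After quantile normalization 30 of 32 stayed above 0, with Cps1 at -0.12 and Glul at -0.15, and the median was 0.22.

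The largest change was that of Prodh, the proline dehydrogenase of mitochondria. Its normalized counts were 3630, 3560 and 3886 in the libraries labelled PBS and 6136, 6085 and 7149 in those labelled LD. The groups did not overlap, and the log2 fold change was 0.80 ± 0.09 (SE, n = 3 against 3, adjusted p = 0.0036 by limma). Oat, the other gene of this group, had 22872, 17354 and 18497 against 33726, 26388 and 26726, also without overlap, and missed the threshold (0.57 ± 0.13, adjusted p = 0.0521 by limma).

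Among the methionine and cysteine genes, Gnmt had 20827, 23236 and 22053 normalized counts in the libraries labelled PBS and 35197, 41198 and 35496 in those labelled LD. All 3 libraries labelled LD were higher, by 0.76 ± 0.10 on the log2 scale (adjusted p = 0.0056 by limma). The other 4 genes of the group were not called. Bhmt had 57862, 42967 and 52807 against 88741, 79615 and 55482, where the third library labelled LD fell among those labelled PBS. Cth, which makes cysteine from cystathionine, was at 0.42 ± 0.14, Cbs, the step before it, at 0.32 ± 0.10 and Mat1a, which makes S-adenosylmethionine, at 0.22 ± 0.11 on the log2 scale.

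In the urea cycle 1 of 6 genes rose. Asl, which splits argininosuccinate into arginine and fumarate, had 7794, 7286 and 7375 against 12651, 12551 and 10557 normalized counts, again without overlap, a log2 fold change of 0.67 ± 0.09 (adjusted p = 0.0068 by limma). Arg1 had 18058, 18586 and 19913 against 22483, 23363 and 24543. The groups did not overlap, but Arg1 missed the threshold (0.32 ± 0.08, adjusted p = 0.076). Cps1, the gate of the cycle, had 40394, 48103 and 49926 against 59447, 61600 and 35744. The third library labelled LD was the lowest of the 6, so that no difference was detectable (0.14 ± 0.20, adjusted p = 0.75). Nags, Otc and Ass1 lay between 0.25 and 0.30 and were not called.

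Of the glutamine and glutamate genes, Gls2 rose, with 5411, 6614 and 6796 against 9518, 8654 and 8079 normalized counts and no overlap (0.48 ± 0.11, adjusted p = 0.041 by limma). Got1 had 2198, 3046 and 3453 against 5469, 3961 and 4265. The libraries labelled LD were all higher, yet their spread left it at adjusted p = 0.0697 (limma) with a log2 fold change of 0.67 ± 0.17. Glul had 61149, 46421 and 54833 against 57059, 55002 and 58908 normalized counts, with the groups overlapping and a difference of 0.08 ± 0.12.

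All 4 histidine genes had every library labelled LD above every library labelled PBS, and 1 of them, Ftcd, rose: 8961, 9280 and 8515 against 12268, 11621 and 11574 (0.41 ± 0.08, adjusted p = 0.023 by limma). Ftcd passes the last histidine carbon unit to folate. Hal had 3740, 4021 and 3807 against 7025, 7170 and 4569 normalized counts. The third library labelled LD sat far below the other 2, and Hal lay just past the threshold (0.67 ± 0.16, adjusted p = 0.0501 by limma). Uroc1 and Amdhd1, the steps after Hal, were at 0.36 ± 0.10 and 0.32 ± 0.11 and not called.

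Of the tyrosine genes, Hpd, the dioxygenase that makes homogentisate, rose: 53150, 44430 and 47005 against 77104, 86033 and 68043 normalized counts (0.67 ± 0.12, adjusted p = 0.020 by limma). The other 3, Tat, Hgd and Fah, also had no overlap between groups and were not called, at 0.66 ± 0.17, 0.32 ± 0.08 and 0.37 ± 0.10 on the log2 scale. Of the tryptophan genes, Haao, which makes the precursor of quinolinate, rose from 13782, 12303 and 13681 to 18193, 18395 and 18484 (0.47 ± 0.08, adjusted p = 0.017 by limma). Tdo2 and Kynu were at 0.34 ± 0.14 and 0.22 ± 0.13 with overlapping groups.

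None of the serine, glycine and glyoxylate genes was called. Sds had 2103, 3118 and 3809 normalized counts in the libraries labelled PBS and 4468, 3139 and 5452 in those labelled LD, so the groups overlapped (0.54 ± 0.24). Agxt, which turns glyoxylate into glycine, was at 0.35 ± 0.13 without overlap. Gldc and Sdsl were at 0.15 ± 0.19 and 0.08 ± 0.16. Aass, the single lysine gene and the first step of lysine breakdown, had 6409, 6503 and 6636 against 8256, 7602 and 5934, with the third library labelled LD lowest of all (0.14 ± 0.12).

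The third library labelled LD thus carried much of the spread. It was the lowest of its group for 22 of the 32 genes and the highest for 6, against 38.6% and 39.1% of all genes. Without it 20 members were called, all higher, and 1205 of all genes. Leaving out another library gave fewer: 6 without the first library labelled PBS, 2 without the second, 3 without the third, and 3 without the first or second library labelled LD. Gnmt and Prodh were called under each of these omissions, and Asl under all but that of the second library labelled PBS. The authors' deposited table, made with DESeq2 per the submitters' processing notes, gives an adjusted p under 0.05 for 17 members, all higher. The share of all genes under that threshold there is not given here, so this count is not weighed against it.

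Cell type markers moved with this comparison too. Of 8 hepatocyte markers tested 0 were called (limma, 3 at an unadjusted p under 0.05), and their sum was 3337400 to 4327382 in the libraries labelled PBS and 4064691 to 4440370 in those labelled LD. Cholangiocyte markers were lower in the libraries labelled LD (4 of 7 called, sum 9973 to 13818 against 4075 to 7218), as were stellate cell markers (3 of 8, 29006 to 34497 against 20650 to 22338). Of 13 macrophage markers 2 were called higher (Marco and Cd163) and 4 lower (Lyz2, Ms4a7, Trem2 and Gpnmb). Pericentral markers summed to 262157 to 381964 against 444498 to 507070 (2 of 10 called, both higher), and periportal markers to 96824 to 103186 against 113401 to 117436 (2 of 8 called, both lower). No listed marker was at 0. The part of these shifts in the members' values was not tested, and in bulk liver, fewer cells of a type and less RNA per cell cannot be told apart.

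**Figure D3:**
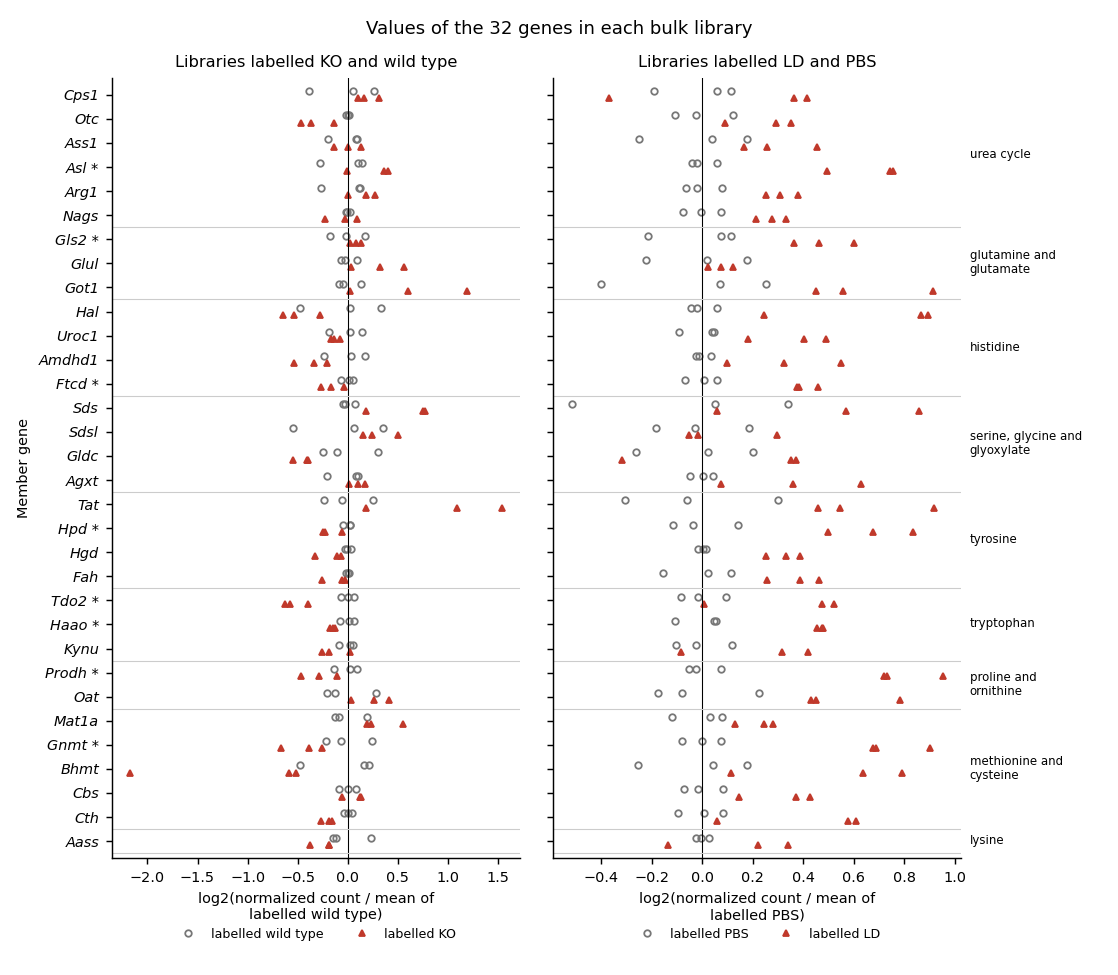
Log2 of each library's normalized count over the mean of its control group (x axis) for the 32 genes (y axis), with control libraries as open circles and the others as filled triangles, and an asterisk for genes called in either comparison. Triangles lie right of 0 for nearly every gene on the right and on both sides on the left, and Bhmt has the single lowest triangle.

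In the comparison labelled KO against wild type the 32 genes did not share a direction. Of the 32, 14 had a log2 fold change above 0 and 18 below, the median was -0.12 against -0.02 over all genes, and 1 gene, Tdo2, fell. Over all 15827 genes tested, 0.701% were called lower and 3.02% higher. No member was called higher (3 had an unadjusted p under 0.05, edgeR called 0 and DESeq2 called 2, Sds and Tat). For 11 members every library labelled KO was below every library labelled wild type, against 11.7% of all genes, and for 1 (Sds) every one was above, against 12.4%.

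Tdo2, the dioxygenase that opens the tryptophan ring, stood at normalized counts of 33941, 31109 and 32444 among libraries labelled wild type and at 24735, 21079 and 21721 in those labelled KO. The groups were well apart, and the log2 fold change was -0.53 ± 0.11 (n = 3 against 3, adjusted p = 0.047 by limma). This call was close to the threshold: it was lost without any single library except the first labelled KO (adjusted p up to 0.156 over all alternatives), while the value stayed below 0. Haao and Kynu, later in the same pathway, were at -0.15 ± 0.09 and -0.14 ± 0.10.

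Bhmt had the largest difference in either direction. It had 62616, 40355 and 65108 against 37305, 39194 and 12444 normalized counts. The libraries labelled KO were all lower, with the third far below the rest, and the gene was not called (-1.06 ± 0.44, adjusted p = 0.25). Gnmt, its companion in methyl group use, was at -0.42 ± 0.17 without overlap. Cth was at -0.21 ± 0.08, also without overlap, and Mat1a and Cbs were above 0 at 0.33 ± 0.15 and 0.07 ± 0.10.

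Tat, the aminotransferase that starts tyrosine breakdown and a known glucocorticoid target, had 19217, 27079 and 21859 against 48514, 65948 and 25711. The first and second libraries labelled KO were high and the third was within the range of those labelled wild type (0.95 ± 0.32, adjusted p = 0.17). Got1 had 2497, 2837 and 2430 against 3937, 5901 and 2632, again with the third library labelled KO inside the other group (0.61 ± 0.26). Sds had 4709, 4385 and 4345 against 7649, 7533 and 5092 and did not overlap (0.57 ± 0.16, adjusted p = 0.10).

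The third library labelled KO was the lowest of its group for 20 of the 32 genes and the highest for 4, against 34.0% and 35.0% of all genes. Without it 2 members were called, Sds and Tat, both higher, and Tdo2 was not. Hpd, Hgd and Fah, downstream of Tat, were at -0.18 ± 0.12, -0.17 ± 0.10 and -0.11 ± 0.10.

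The urea cycle showed no call in this comparison. Otc, which makes citrulline, had 13053, 13185 and 12912 against 11855, 9453 and 10141 and did not overlap (-0.32 ± 0.11, adjusted p = 0.16). Cps1 had 37962, 51327 and 59552 against 53424, 61795 and 55504, and Arg1 had 20095, 26095 and 26254 against 27323, 29232 and 24256, both with overlapping groups (0.22 ± 0.19 and 0.16 ± 0.14). Asl, Nags and Ass1 were at 0.26 ± 0.16, -0.05 ± 0.10 and 0.01 ± 0.16. Glul had 14526, 14931 and 16236 against 19043, 15556 and 22452, which overlapped (0.31 ± 0.15), and Gls2 was at 0.09 ± 0.11.

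All 4 histidine genes were below 0 and none was called. Hal had 10168, 7178 and 12608 against 6887, 6376 and 8252, with overlap (-0.45 ± 0.20), and Amdhd1 was at -0.35 ± 0.13, Ftcd at -0.16 ± 0.10 and Uroc1 at -0.12 ± 0.11. Gldc was at -0.43 ± 0.14 without overlap, while Sdsl and Agxt were at 0.34 ± 0.23 and 0.10 ± 0.11. Prodh had 6356, 7103 and 7456 against 6451, 5716 and 5038 (-0.29 ± 0.12), and Oat was at 0.25 ± 0.16. Aass had 5766, 5650 and 7362 against 4837, 5504 and 5508 without overlap (-0.24 ± 0.12).

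Macrophage markers moved with this comparison: 8 of 11 tested were called higher in the libraries labelled KO, with a sum of 4640 to 9189 in those labelled wild type and 32746 to 57437 in those labelled KO. Of 8 periportal markers 4 were called higher (Hsd17b13, Ctsc, Pck1 and Cyp17a1) and 2 were below 0, Cyp2f2 (-0.58) and Cdh1 (-0.23). The 8 periportal markers summed to 91849 to 112455 in the libraries labelled wild type and 94323 to 153888 in those labelled KO, with overlap. In the nuclei Ctsc was higher in the macrophage-like group 3 (9.83 in wt, 9.33 in ko) than in group 1 (0.606 and 0.533). Among pericentral markers 0 of 10, and among hepatocyte markers 0 of 8, were called (limma, with 1 of each at an unadjusted p under 0.05). Hepatocyte markers summed to 1866927 to 2126634 against 1878659 to 2394235. Pericentral markers summed to 368144 to 383804 in the libraries labelled wild type and to 265961 to 325642 in those labelled KO, without overlap. Their part in the members' values was not tested. The authors' deposited table gives an adjusted p under 0.05 for 6 members, 2 higher (Tat and Got1) and 4 lower (Otc, Tdo2, Gnmt and Bhmt). Here too the share of all genes under that threshold is not given, and the count is not weighed.

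**Figure D4:**
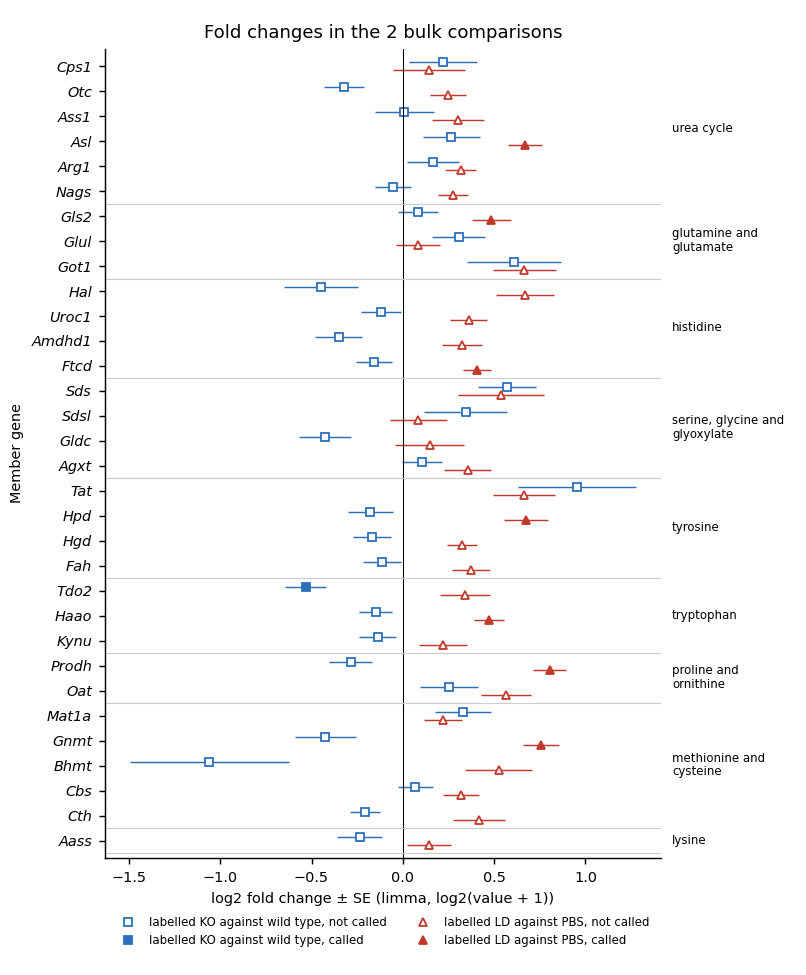
Log2 fold change ± SE by limma (x axis) of the 32 genes (y axis), labelled KO against wild type as squares and labelled LD against PBS as triangles, filled where the adjusted p was under 0.05. The 7 filled triangles lie between 0.41 and 0.80 and the 1 filled square, Tdo2, at -0.53.

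Set beside the nuclei, the members' ko to wt ratios correlated positively with both bulk comparisons. The correlation was higher for the one labelled LD against PBS, a difference that was not tested. Across the 32 genes, Pearson's r between the ko to wt log2 ratio in group 1 and the bulk log2 fold change was 0.53 (Spearman's rho 0.54) for that comparison and 0.42 (0.36) for the one labelled KO against wild type. Over all genes measured in both, r was 0.60 (n = 10103) and -0.16 (n = 10371). In group 0, over 31 members, r was 0.51 and 0.28, and over all genes 0.58 (n = 10066) and -0.16 (n = 10323). These correlations are across genes, which are not independent replicates, and each rests on 1 library per genotype. Gnmt was 4.15-fold higher in ko nuclei of group 1, at 0.76 in the libraries labelled LD and at -0.42 in those labelled KO. Bhmt, lower in ko nuclei of group 1, was at 0.53 and -1.06, and Tdo2 at 0.34 and -0.53. Whether the 2 bulk comparisons differ for any gene was not tested.

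By zone, member medians were all above 0 in the comparison labelled LD against PBS, and the difference between zones was not tested. The 20 genes tilted to group 1 had a median log2 fold change of 0.36 (4 called), the 3 tilted to group 0 one of 0.57 (1 called) and the 9 others one of 0.34 (2 called). In the comparison labelled KO against wild type the medians were 0.04, 0.25 and -0.17, and 1 of the 9 genes not past the fold in both libraries, Hgd, Haao, Mat1a, Aass, Bhmt, Nags, Hpd, Fah and Tdo2, was above 0 (Mat1a).

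Beyond hepatocytes, most of the 32 genes had low levels in the other groups of nuclei, with exceptions in both libraries or in 1 alone. The median member stood at 3.31% to 18.2% of its level in the higher hepatocyte-like group, depending on group and library, and the part of free hepatocyte RNA in these low levels was not tested. By a rule set after the values were seen, a member at 3 or more times a group's median share in both libraries was singled out. Aass stood at 5.32 UMIs per 10000 in wt and 5.59 in ko of the endothelial-like group 4, 111% and 73.5% of its hepatocyte level, where the median member had 9.90% and 8.25%. Haao stood at 1.64 and 1.28 in the B cell-like group 9, 92.8% and 57.3% of its hepatocyte level against medians of 14.3% and 10.5%. Sdsl, a low gene throughout, had 60.5% and 51.5% in the cholangiocyte-like group 7. Oat had 20.9% to 55.1% in groups 2, 3, 8, 10 and 11 and Asl 62.2% and 17.1% in the mesothelial-like group 11. Aass was also singled out in group 8, which carried no single cell type's markers, at 48.3% and 19.2%, together with Prodh (20.0% and 13.2%), and Haao in the dendritic cell-like group 10 (22.7% and 24.0%). Depth and the number of nuclei per group are not given, so no interval can be put on these levels.

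**Figure D5:**
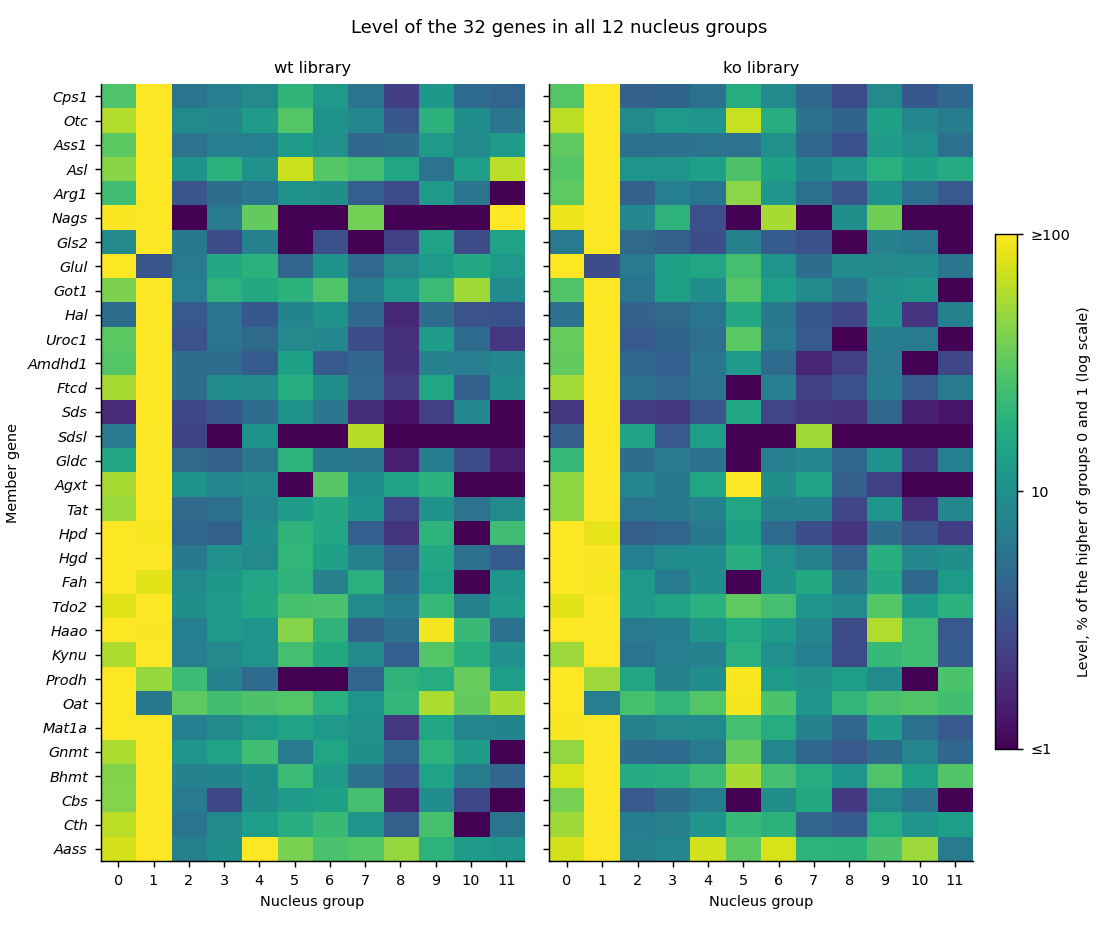
Level of each of the 32 genes (rows) in nucleus groups 0 to 11 (columns) of the wt (left) and ko (right) library, as a percentage of the higher of groups 0 and 1 on a logarithmic colour scale from 1% to 100%. Group 1 is bright except for Glul and Oat, group 0 is dark for Sds and Hal, and Aass in group 4 and Haao in group 9 stand out among the other groups.

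Scaled to summed exon length in kilobases (GENCODE release M21, mm10), the 32 genes spanned a wide range of bulk levels. That length joins the exons of all annotated transcripts, and the order below depends on it. Prodh, with 7.80 kb of exons, had a mean of 3692 normalized counts before scaling in the libraries labelled PBS. Nags, with 2.84 kb, had 1672. In the libraries labelled PBS, Ass1 was highest at 32256 ± 4730 normalized counts per kb (SD, n = 3), followed by Hpd at 22648 ± 2105, Mat1a at 18283 ± 1309, Gnmt at 18274 ± 999 and Glul at 16291 ± 2224. Ass1, Hpd and Glul did not overlap with the gene below them, whereas the ranges of Mat1a, Gnmt and Glul overlapped one another. Cps1 was the tenth, at 8306 ± 911, and overlapped with Arg1, Tat and Oat. Nags (589 ± 30.7), Prodh (473 ± 22.0) and Sdsl (167 ± 21.6) were lowest and did not overlap with one another. In the libraries labelled wild type the order began with Ass1 (38278 ± 4305), Gnmt (36084 ± 5972) and Hpd (25521 ± 767), and ended with Nags (524 ± 8.95), Gldc (350.0 ± 71.4) and Sdsl (183 ± 54.2). The ranges of Ass1 and Gnmt overlapped there, and those of the 3 lowest did not. These levels come from 2 separately scaled tables and are not compared between them.

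Of 91 other genes of nitrogen and amino acid metabolism tested, 17 rose and 1 fell in the libraries labelled LD, where 1.95% of all genes were called higher and 2.21% lower. The highest log2 fold changes were those of Klf15, a regulator of amino acid breakdown (0.81 ± 0.08), Kyat1, a kynurenine aminotransferase (0.78 ± 0.12), Dmgdh, which demethylates dimethylglycine (0.73 ± 0.10), and Prodh2, a hydroxyproline dehydrogenase (0.67 ± 0.10). Fgf21, a liver hormone of nutrient stress, fell (-1.04 ± 0.20, adjusted p = 0.025 by limma). By pathway, the called genes were 3 of 13 in nitrogen transport and ammonia, 1 of 20 in branched-chain, 3 of 11 in aromatic, 5 of 13 in glycine, serine and threonine, 1 of 5 in proline, 1 of 10 in sulfur amino acid and 1 of 7 in lysine, asparagine and creatine metabolism, all higher. Among the hormone receptors and regulators, Klf15 was called higher and Fgf21 lower. The median over the 91 was 0.26.

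In the comparison labelled KO against wild type, 3 of 91 fell and 0 rose, beside 0.701% and 3.02% of all genes (5 of the 91 had an unadjusted p under 0.05 with a positive fold change): Aadat, an aminotransferase of kynurenine and lysine breakdown (-1.004 ± 0.158), Hao1, the glycolate oxidase (-0.41 ± 0.09), and Mmut, the methylmalonyl-CoA mutase at the end of valine and isoleucine breakdown (-0.41 ± 0.09). Of the 20 branched-chain genes 19 were below 0 and 15 had an unadjusted p under 0.05 with a negative fold change, although Mmut alone was called. Over all genes, 8360 of 15827 were below 0 and 1265 of 15827 had such a p with a negative fold change. In the nuclei, Acmsd, Aspg, Kyat1, Slc25a15 and Slc7a2 were among the genes of this list at least 1.5-fold higher in group 1 in both libraries, and Ppm1k and Slc1a2 were that much higher in group 0. The mitochondrial ornithine carrier Slc25a15 and the arginine transporter Slc7a2 were thus tilted the same way as Cps1 and Arg1.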

How the data were processed

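The data are 12 bulk RNA-seq libraries of mouse liver and 2 libraries of pooled liver nuclei. Per the submitters' processing notes, FastQC, STAR and DESeq2 (bulk) and Cell Ranger and Seurat 4.0.1 (nuclei) were used on mm10. The read counter, annotation and other versions are not given in the sources used here. The bulk signal that the authors deposited is a read count divided by 1 size factor per library: 100% of values in each library were whole multiples of 1 step (tolerance 0.01), which gave back the reads. The nucleus signal the authors deposited is an average over the nuclei of each group in each library, after scaling every nucleus to 10000 UMIs. The number of nuclei is not given, so their depth is unknown. The authors' deposited log2 fold changes and p-values were used only where named.

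Groups were taken from the labels. Genes with at least 10 normalized counts in 3 of 6 libraries were tested within each bulk table with limma 3.58.1 (R 4.3.3; trend, 2-sided) on log2(value + 1), with Benjamini-Hochberg adjustment over all genes tested and a threshold of 0.05. Fold changes are on that log2(value + 1) scale. Alternatives were a pseudocount of 5, no filter, quantile normalization, a replicate block, edgeR 4.0.16 and DESeq2 1.42.0 on the recovered reads, and leaving out each library. The limma script was tested on simulated data. For nuclei, ratios had a pseudocount of 0.002477, and a ratio of 1.5 in either direction was counted. Genes not above the median level were left out. Between groups 0 and 1 that level was taken in the group where the gene was higher. Of 21915 nucleus rows, 4 with a repeated name were dropped. Folds printed for nuclei are plain ratios of the deposited means raised by that pseudocount only in the log2 values.

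Per-library values are given for Cps1, Arg1 and Glul, called members, and the member with the largest absolute log2 fold change in each role group, with a few added after their values were seen (Oat, Bhmt in the comparison labelled LD, and Sds). The members and all lists were chosen with earlier results of these data known. Results for some listed genes and motifs are not reported here.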

Additional observations from a re-analysis of the deposited data

Results flagged for a closer look

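For 4 of the members above the level filter in both groups, the ratio of ko to wt pointed one way in nucleus group 0 and the other way in group 1. Each rests on 1 pooled library per genotype, and the difference was not tested. Bhmt had a log2 ratio of 0.18 in group 0 and -0.67 in group 1, a difference of 0.86. Gldc had 0.16 and -0.25, a difference of 0.41. Arg1 had 0.02 and -0.36, a difference of 0.38. Glul had 0.10 and -0.07, a difference of 0.18. Sdsl, which the filter left out in group 0, also pointed both ways, at 0.871-fold there and 1.40-fold in group 1.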

How the results depend on the processing

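Members called in the comparison labelled KO against wild type numbered 1, and 0 without the filter, 0 after quantile normalization, 3 by DESeq2 and 0 to 2 when 1 library was left out. Members called in the comparison labelled LD against PBS numbered 7, and 4 after quantile normalization, 18 by DESeq2 and 2 to 20 when 1 library was left out. Over all genes, 589 were called in the first comparison (1241 by DESeq2, 648 by edgeR, 108 to 479 with 1 library left out) and 620 in the second (1221, 603 and 135 to 1205). The cause of these differences was not tested, beyond the smaller number of libraries. Correlations between the deviations of same-numbered libraries were 0.12, -0.03 and -0.02 in the first table and 0.05, -0.04 and 0.13 in the second. Differently numbered libraries gave -0.07 to 0.09 and -0.17 to 0.16. So few libraries cannot settle whether the numbers pair anything. With the number as a replicate block 0 and 10 members were called, and 822 and 793 genes. At a threshold of 2-fold, 15 members rather than 23 differed between nucleus groups, 5 rather than 16 between genotypes in group 0, and 7 rather than 19 in group 1.

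Of 768 log2 fold changes under the alternatives, 10 changed sign, in 6 results near 0. In the comparison labelled KO against wild type these were Ass1 (-0.0036 after quantile normalization, -0.0892 to 0.0749 with 1 library left out, below 0 without the first labelled wild type or the second labelled KO), Nags (-0.127 to 0.0320, above 0 without the third labelled KO) and Fah (0.0182 after quantile normalization). In the other they were Cps1 (-0.12 after quantile normalization), Glul (-0.15 after quantile normalization, -0.0236 to 0.175 with 1 library left out, below 0 without the second labelled PBS) and Sdsl (-0.0257 to 0.181, below 0 without the first labelled PBS or the third labelled LD). Having 3 libraries a group, and 1 pool a genotype in nuclei, limits what can be detected.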

Other observations

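Ratios of 2 members within each library, chosen after the values were seen, differed between the 2 bulk tables. The normalized count of Glul, tilted to group 0, over that of Cps1, tilted to group 1, was 0.383, 0.291 and 0.273 in the libraries labelled wild type and 0.356, 0.252 and 0.405 in those labelled KO. It was 1.51, 0.965 and 1.10 in the libraries labelled PBS and 0.960, 0.893 and 1.65 in those labelled LD. Gldc over Hal, both tilted to group 1, was 0.258, 0.250 and 0.157 in the libraries labelled wild type and 0.236, 0.253 and 0.177 in those labelled KO. It was 2.29, 1.88 and 1.64 in the libraries labelled PBS and 1.37, 1.33 and 1.31 in those labelled LD. The ranges of the 2 tables did not overlap for either ratio. The labelled diets differ between the tables and are in doubt, so no diet is read from these ratios. Table and diet cannot be told apart here, and no test was made.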
